A study of Mus musculus with 32 samples.

Results

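The genes described here are 33 mouse genes that attach amino acids to transfer RNAs or keep the cell supplied with those amino acids. They are 19 cytosolic aminoacyl-tRNA synthetases, 7 amino acid transporters of the cell surface, 5 enzymes of serine and one-carbon metabolism and 2 enzymes of proline synthesis. They were picked by gene symbol from the 36595 genes of the count table. All 33 were among the 16428 genes that passed the filter on low counts, so each one was tested. RNA was sequenced from islets of Langerhans of C57BL/6NHsd mice of both sexes, aged 10 weeks. Mice called hIAPP carried human islet amyloid polypeptide at the place of the mouse gene, through homologous recombination, and mice called mIAPP were their wild-type littermates with the mouse gene. After isolation, hand picking and a night at 11.1 mM glucose, both kinds of islets spent 48 h at either 11.1 or 16.7 mM glucose in RPMI medium with fetal bovine serum. This gave 4 groups (hIAPP and mIAPP islets at each glucose level) of 8 libraries, 1 from each of 8 sets of experiments. The labels do not give the number of copies of the human gene, or how many animals gave islets to a set. With the set as a block in the fit, the p-values rest on how much the differences between groups varied from set to set.

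An aminoacyl-tRNA synthetase recognises 1 amino acid and the transfer RNAs that belong to it, and joins them at the cost of ATP. The ribosome uses the charged transfer RNAs, and transfer RNAs that stay uncharged activate the kinase Gcn2 (gene Eif2ak4), which slows translation and raises the transcription factor ATF4. ATF4 is known to drive many synthetase, transporter and serine synthesis genes through a composite C/EBP-ATF response element. Beta cells make and release large amounts of insulin, so their demand for charged transfer RNAs and for amino acids is high. Human islet amyloid polypeptide is a peptide of the beta cell that can aggregate into amyloid fibrils, which the mouse peptide does not form readily.

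The libraries held between 16.1 M and 43.7 M estimated counts. Counts from mitochondrially encoded genes made up 2.68% to 6.76% of a library in hIAPP islets at 16.7 mM, with a median of 3.5%. The shares were 2.84% to 37.0% in mIAPP islets at 16.7 mM (median 7.29%), 5.23% to 27.2% in hIAPP islets at 11.1 mM (median 18.1%) and 3.49% to 34.7% in mIAPP islets at 11.1 mM (median 20.4%). This share therefore moved with glucose and with genotype, and the mIAPP library of set 7 at 16.7 mM, with 37.0%, stood apart from its group. Every result below was therefore also fitted with the log2 mitochondrial share as a covariate, in the 18 libraries under 10% (8, 5, 2 and 3 in the order above), and with that 1 library left out. Markers of beta, alpha, delta and PP cells were all detected, and Ins1 and Ins2 together held a group mean of 17.9% to 20.2% of a library. Marker levels of other cells also moved with glucose. In hIAPP islets the summed level of the 7 endothelial markers was 18.5 to 52.1 CPM (counts scaled to the size of the library) at 16.7 mM and 54.7 to 143 CPM at 11.1 mM, and all 7 fell. The 7 macrophage markers summed to 77.6 to 142 CPM against 174 to 300 CPM (0 rose and 4 fell), and the 7 stellate cell and fibroblast markers to 173 to 910 CPM against 285 to 1180 CPM (0 rose and 5 fell). The 7 ductal markers summed to 707 to 1447 CPM against 369 to 658 CPM (3 rose and 1 fell of 6 tested), and the 8 beta cell markers, whose sum is mostly insulin, to 143700 to 207700 CPM against 164100 to 243800 CPM (1 rose and 7 fell). In mIAPP islets 4 of the 7 endothelial, 5 of the 7 macrophage and 2 of the 7 stellate cell and fibroblast markers fell, and 0 rose. Of the 8 beta cell markers 1 rose and 3 fell there, and of the 6 ductal markers tested 2 rose and 0 fell. In RNA from whole islets, fewer cells of a type and less RNA in each cell cannot be told apart, and the part of these shifts in the results below was not tested.

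The first question was how the genes responded to the higher glucose level in islets with the human peptide. In hIAPP islets 28 of the 33 genes were higher at 16.7 than at 11.1 mM glucose and 2 were lower, at an adjusted p under 0.05 in edgeR. Of all genes tested, 32.2% were called higher and 33.3% lower in this comparison, so a response to glucose was common in the table and its upward direction was frequent among these genes. Their median log2 fold change was 0.67, beside -0.02 over all genes tested, and 8 of them changed more than 2-fold. In 20 of the 33 every library at 16.7 mM lay above every library at 11.1 mM, which was so for 14.3% of all genes, and in none was every library below, as in 8.38% of all genes. Summed over the 33 genes, the level was 4012 to 4356 CPM at 16.7 mM and 2791 to 3332 CPM at 11.1 mM in hIAPP islets. In mIAPP islets 23 rose and 1 fell, with a median log2 fold change of 0.49 (all genes, -0.03), where 24.9% of all genes were called higher and 22.7% lower. There 5 changed more than 2-fold, and in 8 all libraries at 16.7 mM lay above all libraries at 11.1 mM (2.64% of all genes), and in none below (1.41%). The summed levels in mIAPP islets were 3682 to 4313 CPM and 2784 to 3503 CPM. Across both genotypes 23 genes rose in each, 5 (Aars, Farsa, Wars, Slc7a5 and Slc3a2) passed the threshold in hIAPP islets alone, Yars fell in both, Cars fell in hIAPP islets alone, and Sars, Vars and Slc1a5 passed in neither. Whether the response differed between the genotypes is given by the interaction test further on.

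**Figure D1:**
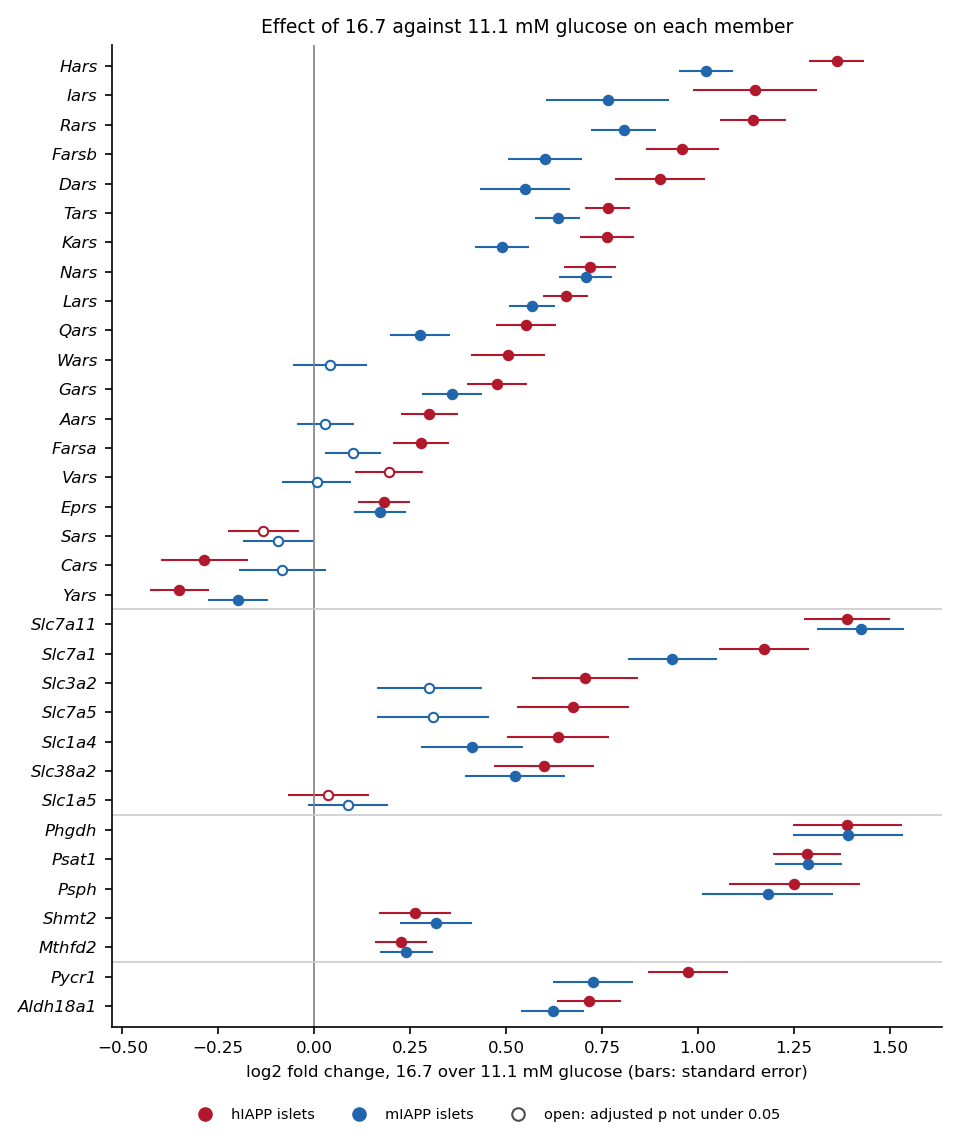
Log2 fold change between 16.7 and 11.1 mM glucose for each of the 33 genes in hIAPP islets (red) and mIAPP islets (blue), with the standard error as a bar, 8 libraries a group; open points did not pass an adjusted p of 0.05. Horizontal lines part the synthetases, transporters, serine and one-carbon enzymes and proline enzymes, from top to bottom, and most points lie right of 0, with Yars, Cars and Sars left of it.

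Among the 19 synthetases 15 rose and 2 fell in hIAPP islets, and 12 rose and 1 fell in mIAPP islets. The largest change was in Hars, the histidyl-tRNA synthetase. Hars measured 28.6, 32.97 and 34.7 CPM (lowest, median and highest of 8 libraries) at 11.1 mM in hIAPP islets and 77.0, 83.2 and 89.0 CPM at 16.7 mM. In mIAPP islets it measured 27.0, 33.2 and 41.3 CPM at 11.1 mM and 57.8, 67.9 and 81.9 CPM at 16.7 mM. All libraries at 16.7 mM were above all libraries at 11.1 mM in both genotypes, and the level was higher in 8 of 8 sets. The log2 fold changes were 1.36 ± 0.07 (SE, adjusted p = 5.7e-14) for hIAPP and 1.02 ± 0.07 (adjusted p = 2.88e-11) for mIAPP. Some exons of Hars lie opposite exons of Hars2, its mitochondrial counterpart on the other strand, and whether counting used the strand is not given in the sources used here. Hars2, named after its values were seen, had log2 fold changes of -0.36 and -0.10 in the same comparisons, the first of which passed the test (adjusted p = 0.00147).

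Rars, the arginyl-tRNA synthetase, measured 25.0, 33.9 and 43.2 CPM at 11.1 mM and 66.2, 72.8 and 80.04 CPM at 16.7 mM in hIAPP islets. The groups did not overlap, and the log2 fold change was 1.14 ± 0.09 (adjusted p = 3.37e-11). In mIAPP islets Rars measured 18.9, 33.3 and 44.6 CPM against 38.7, 57.6 and 69.9 CPM, where the lowest library at 16.7 mM fell inside the range at 11.1 mM, and the log2 fold change was 0.81 ± 0.08 (adjusted p = 3.29e-08). Iars, which charges isoleucine, had a wider spread, with 24.1, 44.8 and 77.5 CPM at 11.1 mM and 93.5, 102 and 113 CPM at 16.7 mM in hIAPP islets. Its log2 fold changes were 1.15 ± 0.16 (adjusted p = 1.24e-06) for hIAPP and 0.76 ± 0.16 (adjusted p = 3.9e-04) for mIAPP. Farsb and Farsa encode the 2 subunits of the phenylalanyl-tRNA synthetase, and their changes were unequal. Farsb rose by 0.96 ± 0.10 and 0.60 ± 0.10 on the log2 scale in hIAPP and mIAPP islets. Farsa rose by 0.28 ± 0.07 in hIAPP islets and had a change of 0.10 ± 0.07 in mIAPP islets (adjusted p = 0.263).

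Several synthetases are held together in the cytosol in a multisynthetase complex. All 7 synthetase members of that complex in the set (Dars, Eprs, Iars, Kars, Lars, Qars and Rars, a grouping made after their values were seen) rose in both genotypes, with median log2 fold changes of 0.76 and 0.55. Of the 12 outside the complex 8 rose and 2 fell in hIAPP islets and 5 rose and 1 fell in mIAPP islets, with medians of 0.39 and 0.07. Within the complex the size differed widely. Dars, for aspartate, rose by 0.90 ± 0.12 and 0.55 ± 0.12 on the log2 scale, and Kars, for lysine, by 0.76 ± 0.07 and 0.49 ± 0.07. Eprs, the bifunctional enzyme for glutamate and proline, rose by only 0.18 ± 0.07 and 0.17 ± 0.07. It was called in 12 of 20 alternatives in hIAPP islets and in 4 of 20 in mIAPP islets. In hIAPP islets its call was lost with upper-quartile scaling and with the filter at a mean of 5 CPM. It was also lost there without sets 1, 2, 6 or 8 (log2 fold changes of 0.16 to 0.24 over the 8 omissions). In mIAPP islets the call was lost with every other scaling and filter and without the set as a block (adjusted p = 0.0776). Leaving out any set but set 7 also lost it there (0.13 to 0.19).

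Outside the complex, Nars, Tars, Gars and Wars also rose in hIAPP islets. Nars, for asparagine, was 163, 186 and 198 CPM at 11.1 mM and 284, 299 and 326 CPM at 16.7 mM, with no overlap and a log2 fold change of 0.72 ± 0.07 (adjusted p = 2.26e-09). In mIAPP islets its log2 fold change was 0.71 ± 0.07 (adjusted p = 8.48e-09), again with no overlap. Wars, the tryptophanyl-tRNA synthetase, measured 97.1, 140 and 175 CPM at 11.1 mM and 171, 195 and 209 CPM at 16.7 mM in hIAPP islets, and the groups overlapped only at their edges. Its log2 fold change was 0.51 ± 0.10 there (adjusted p = 6.86e-05). With mIAPP it was 0.04 ± 0.10 (adjusted p = 0.744), where 4 of 8 sets were higher and where upper-quartile scaling turned the sign (-0.06).

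Yars, the tyrosyl-tRNA synthetase, went the other way. It measured 105, 137 and 143 CPM at 11.1 mM and 90.2, 99.6 and 115 CPM at 16.7 mM in hIAPP islets, was lower in 7 of 8 sets, and fell by 0.35 ± 0.08 on the log2 scale (adjusted p = 3.46e-04). In mIAPP islets it measured 108, 131 and 179 CPM against 98.3, 116 and 166 CPM and fell by 0.20 ± 0.08 (adjusted p = 0.0373). The ranges overlapped in both genotypes. The call in mIAPP islets was lost by total count, without the filter on low counts and without the set as a block (adjusted p = 0.134). Leaving out sets 2, 5 or 8 also lost it (log2 fold changes of -0.25 to -0.16 over the omissions). Cars, for cysteine, fell by 0.29 ± 0.11 in hIAPP islets (adjusted p = 0.0289). That call was lost by total count, without the filter on low counts and without the block (adjusted p = 0.111). It was also lost without sets 1, 5 or 6 (-0.36 to -0.23). Sars, for serine, and Vars, for valine, had log2 fold changes of -0.13 and 0.19 in hIAPP islets and -0.09 and 0.01 in mIAPP islets, none past the threshold; Sars in hIAPP islets had 0.03 by total count and Vars in mIAPP islets -0.10 with upper-quartile scaling. Sars was at 250 to 534 CPM in all 32 libraries. With upper-quartile scaling, which moved the median of all genes by -0.16 in hIAPP islets, Sars was called lower and Eprs and Farsa were no longer called there; no gene that rose or fell in the fit with TMM scaling changed its direction under the other 4 scalings.

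Amino acid transporters bring the substrates across the plasma membrane, and 6 of 7 rose in hIAPP islets and 4 in mIAPP islets, with none lower. Slc7a11, the light chain of the cystine and glutamate exchanger, was expressed at a low level and was among the genes that changed most. It measured 5.14, 5.91 and 7.19 CPM at 11.1 mM and 12.7, 15.8 and 19.6 CPM at 16.7 mM in hIAPP islets. In mIAPP islets it measured 4.85, 5.53 and 7.27 CPM against 12.3, 14.6 and 19.5 CPM. No library at 16.7 mM was as low as any at 11.1 mM in either genotype. The log2 fold changes were 1.39 ± 0.11 (adjusted p = 1.37e-10) and 1.42 ± 0.11 (adjusted p = 2.93e-10). Slc7a1, a carrier of arginine, lysine and ornithine, measured 25.2, 35.2 and 52.4 CPM against 69.7, 77.8 and 91.1 CPM in hIAPP islets, again with no overlap. It rose by 1.17 ± 0.12 and 0.93 ± 0.12 on the log2 scale in hIAPP and mIAPP islets.

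Slc7a5 and Slc3a2 encode the light and the heavy chain of a transporter of large neutral amino acids such as leucine. Slc7a5 measured 99.8, 138 and 193 CPM at 11.1 mM and 208, 223 and 240 CPM at 16.7 mM in hIAPP islets, with no overlap. It measured 68.0, 143 and 246 CPM against 99.2, 198 and 218 CPM in mIAPP islets, where the groups overlapped over most of their range. Slc7a5 rose by 0.67 ± 0.15 (adjusted p = 2.9e-04) in hIAPP islets, and its log2 fold change was 0.31 ± 0.15 in mIAPP islets (adjusted p = 0.0827). Slc3a2 followed the same order, with 0.71 ± 0.14 and 0.30 ± 0.14. With the 16.7 mM library of set 7 left out, both genes passed the threshold in mIAPP islets (Slc7a5 0.36, adjusted p = 0.0448; Slc3a2 0.34, adjusted p = 0.0498), and both also passed without set 3 (0.39 and 0.38) or without set 5 (0.40 and 0.36). With the mitochondrial covariate both had 0.04 in mIAPP islets, and in the libraries under 10% the sign turned (-0.12 and -0.09), none of these called. Slc38a2, a sodium-coupled carrier of small neutral amino acids, rose by 0.60 ± 0.13 and 0.52 ± 0.13. It was higher in 6 of 8 sets in hIAPP islets and in 8 of 8 in mIAPP islets. In hIAPP islets its highest library at 11.1 mM (134 CPM) lay above the highest at 16.7 mM (126 CPM). Slc1a4, a carrier of alanine, serine and cysteine, rose by 0.64 ± 0.13 and 0.41 ± 0.13, the latter a call lost without sets 2 or 8 (0.28 to 0.50) and without the block (adjusted p = 0.103). Slc1a5, a glutamine carrier, stayed between 7.49 and 15.4 CPM in all 32 libraries, with log2 fold changes of 0.04 ± 0.10 and 0.09 ± 0.10, which were -0.10 and -0.02 with upper-quartile scaling.

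**Figure D2:**
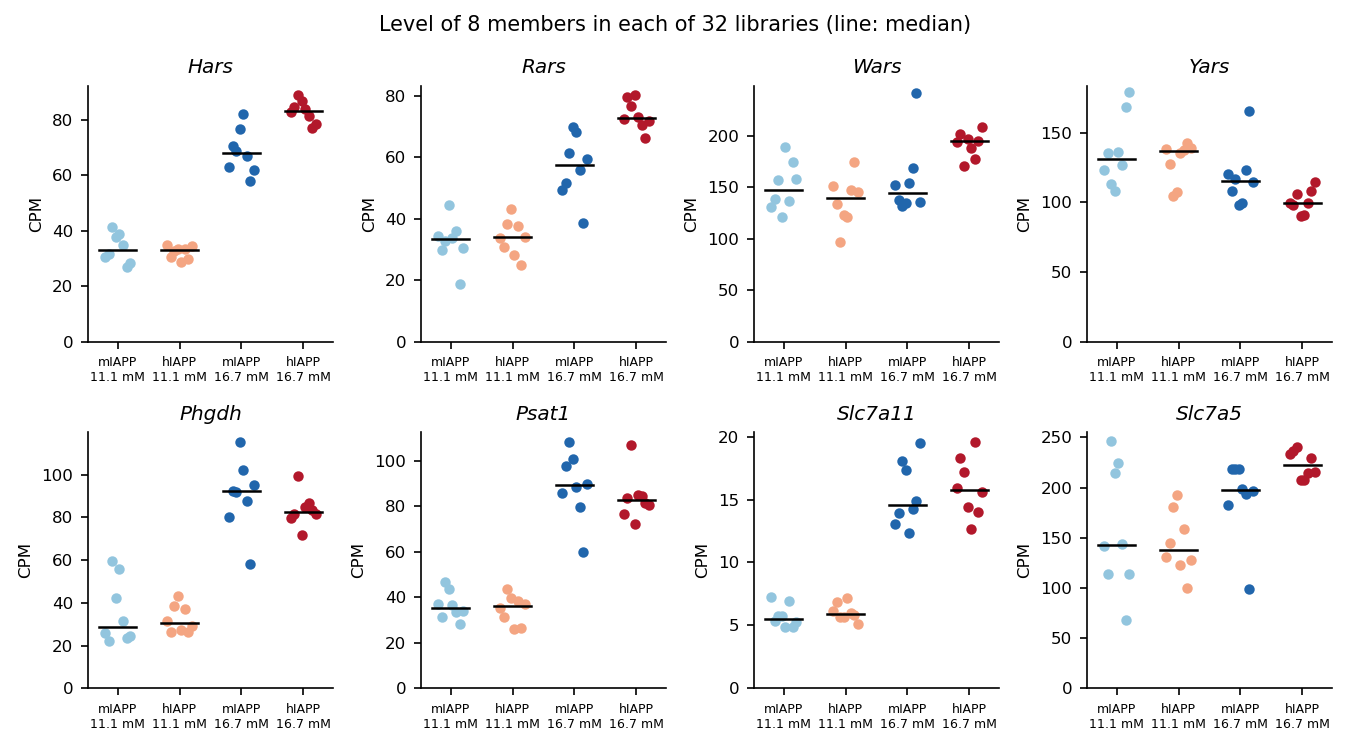
CPM of 8 of the genes in each of the 32 libraries, by genotype and glucose level (points, 1 per library; black line, median of 8). Hars, Psat1 and Slc7a11 show no overlap between the 2 glucose levels in either genotype, Wars is raised mainly in hIAPP islets at 16.7 mM, and the single high points of Wars and Yars and the low point of Slc7a5 in mIAPP islets at 16.7 mM are the library of set 7.

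The 5 enzymes of serine and one-carbon metabolism all rose in both genotypes, and the 3 that make serine from a glycolytic intermediate rose most. Phgdh, the first and committed step, measured 26.3, 30.3 and 43.2 CPM at 11.1 mM and 71.8, 82.5 and 99.5 CPM at 16.7 mM in hIAPP islets. In mIAPP islets Phgdh measured 22.3, 28.6 and 59.8 CPM against 58.0, 92.2 and 115 CPM. The groups did not overlap in hIAPP islets and overlapped at their edges in mIAPP islets. Its log2 fold change was 1.39 ± 0.14 in each (adjusted p = 9.1e-09 and 2.4e-08). Psat1, the transaminase of the second step, rose by 1.28 ± 0.09 and 1.29 ± 0.09 with no overlap in either genotype (adjusted p = 6.77e-12 and 2.23e-11). Psph, the phosphatase of the last step, measured 7.88, 15.4 and 22.8 CPM against 32.6, 35.1 and 42.1 CPM in hIAPP islets and rose by 1.25 ± 0.17 and 1.18 ± 0.17. The 2 mitochondrial enzymes that pass on the one-carbon unit of serine changed less. Shmt2, which splits serine to glycine, rose by 0.26 ± 0.09 and 0.32 ± 0.09, and Mthfd2, the next enzyme, by 0.23 ± 0.07 and 0.24 ± 0.07. Neither was called in either genotype with upper-quartile scaling, and in hIAPP islets the call of Shmt2 was also lost without sets 3 or 8 (0.21 to 0.31).

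Proline synthesis starts with Aldh18a1, which reduces glutamate, and ends with a pyrroline-5-carboxylate reductase such as Pycr1. Pycr1 measured 38.8, 44.3 and 48.0 CPM at 11.1 mM and 79.4, 85.3 and 91.9 CPM at 16.7 mM in hIAPP islets, and 37.0, 45.3 and 72.6 CPM against 73.1, 81.9 and 88.9 CPM in mIAPP islets. The groups did not overlap in either genotype. Pycr1 rose by 0.98 ± 0.10 (adjusted p = 1.72e-08) and 0.73 ± 0.10 (adjusted p = 3.94e-06), and Aldh18a1 by 0.72 ± 0.08 and 0.62 ± 0.08 (adjusted p = 5.93e-08 and 1.34e-06).

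The mitochondrial share moved with glucose, and the size of several responses changed when it entered the fit. In hIAPP islets 15 genes were called higher and 0 lower with the covariate, where 19.4% of all genes were called in either direction, and 18 and 0 in the libraries under 10%, where 22.6% were. The median log2 fold change was 0.30 with the covariate. The 15 that kept the call with the covariate were also called in each of the other 19 alternative analyses tried. They were the synthetases Dars, Farsb, Hars, Kars, Lars, Nars, Rars, Tars and Wars, the transporters Slc7a1 and Slc7a11, and Phgdh, Psat1, Aldh18a1 and Pycr1. Slc7a11 had a log2 fold change of 1.53 with the covariate, Hars 1.14, Rars 0.93, Psat1 0.95 and Phgdh 0.66. The other 4 transporters that rose in hIAPP islets had values near 0 with it: Slc7a5 had -0.04, Slc3a2 0.01, Slc1a4 0.05 and Slc38a2 0.08, and they had 0.32, 0.39, 0.37 and 0.06 in the libraries under 10%, none of them called. Calls in hIAPP islets were also lost with the covariate for Aars, Eprs, Farsa, Gars, Iars, Qars, Yars, Psph, Shmt2 and Mthfd2. Of these Gars, Iars and Psph were called in the libraries under 10% (0.39, 0.65 and 0.88). Cars had 0.24 with the covariate and 0.03 in the libraries under 10%, against its fall of 0.29 in the full fit. In mIAPP islets 18 genes rose and 0 fell with the covariate and 16 and 0 in the libraries under 10%, where 35.3% and 30.2% of all genes were called, and the median was 0.31 with the covariate. Lost there with the covariate were Eprs, Qars, Yars, Slc1a4, Slc38a2 and Mthfd2. A total of 16 genes were called in mIAPP islets in every one of the 20 alternatives, the 15 named above less Wars, with Iars and Psph added. The low-share libraries at 11.1 mM number only 2 and 3, so these fits rest on few libraries.

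**Figure D3:**
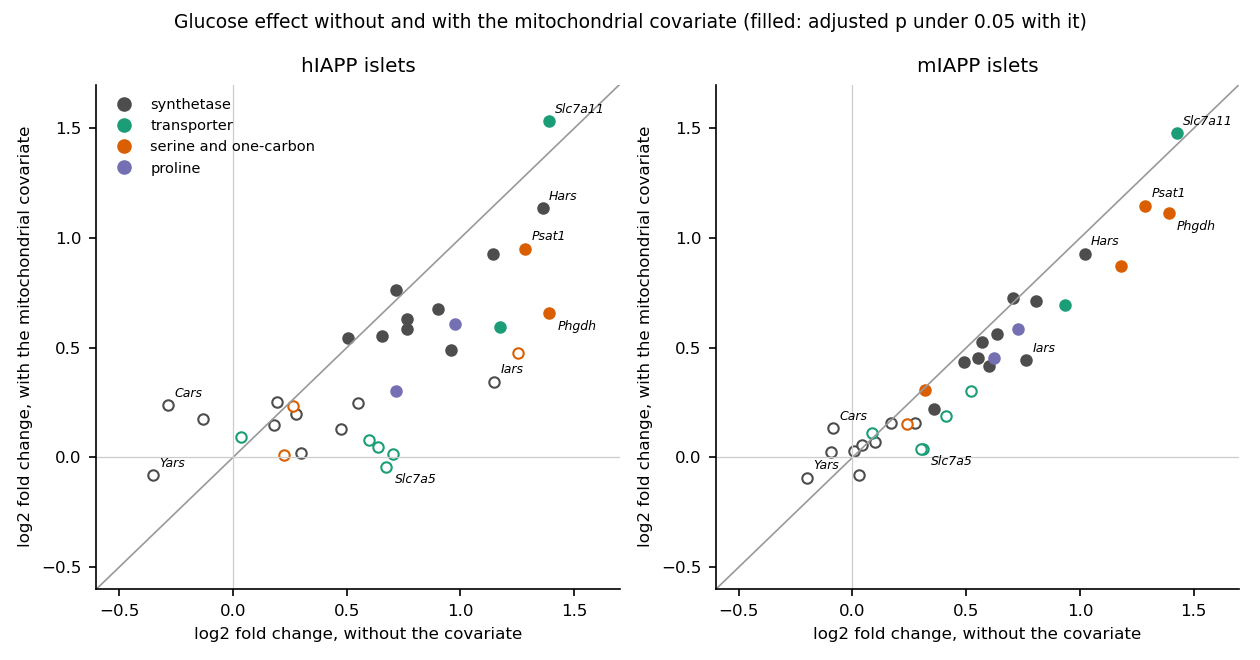
Log2 fold change between 16.7 and 11.1 mM glucose without (horizontal) and with (vertical) the log2 mitochondrial share as a covariate, for the 33 genes in hIAPP islets (left) and mIAPP islets (right), coloured by role; filled points had an adjusted p under 0.05 with the covariate and the line marks equality. Slc7a11 lies near the line in both panels, and Slc7a5 falls from 0.67 to -0.04 in hIAPP islets.

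The promoters were read because so many of the genes moved together, and ATF4 is a known regulator of several of them. RefSeq (GRCm38.p6) windows from 250 bases before to 50 after the start of transcription were matched by symbol for 24 of the 33 genes; Cars, Hars, Lars, Nars, Rars, Vars, Wars, Slc7a5 and Slc1a5 were not matched. The motif TGATGNAA, the core of the C/EBP-ATF response element, was searched on both strands and stood in the windows of 8 of the 24 genes (33.3%) and of 4.51% of the 27025 genes in the table. Its form TGATGCAA, whose matches are part of the former, stood in 7 of the 24 (29.2%) and in 1.03% of all genes. The E-box CACGTG, which reads the same on both strands, stood in 5 of the 24 (20.8%; Aars, Aldh18a1, Farsb, Iars and Tars) and in 8.09% of all genes. Sequences of 7 of the genes with TGATGNAA follow, 5′ to 3′ on the strand of the gene, with the match in capitals; a match on the opposite strand reads as TTGCATCA or TTTCATCA.
Slc7a11: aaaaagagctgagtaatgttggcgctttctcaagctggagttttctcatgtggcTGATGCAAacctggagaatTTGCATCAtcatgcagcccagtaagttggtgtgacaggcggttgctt
Pycr1: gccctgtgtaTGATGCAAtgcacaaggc
Tars: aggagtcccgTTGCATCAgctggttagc
Iars: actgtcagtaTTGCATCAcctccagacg
Gars: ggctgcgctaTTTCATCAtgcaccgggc
Slc1a4: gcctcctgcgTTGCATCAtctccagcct
Yars: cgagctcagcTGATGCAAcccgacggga
The Slc7a11 run is the 120 bases up to the start (chr3:50443614-50443733, minus strand) and holds 2 matches, at 66 to 59 and at 47 to 40 bases before the start, facing in opposite directions. The others are windows of 28 bases, for Pycr1 at chr11:120643834-120643861 (minus), Tars at chr15:11399656-11399683 (minus), Iars at chr13:49682127-49682154 (plus), Gars at chr6:55037961-55037988 (plus), Slc1a4 at chr11:20332700-20332727 (minus) and Yars at chr4:129189896-129189923 (plus). The matches of Yars and Iars lay after the start of transcription, and that of Slc1a4 spanned it. Of the 8 genes, 7 rose and Yars fell with glucose in hIAPP islets. In mIAPP islets 6 rose, Yars fell and Aars was not called. The motif thus stood near the start of genes with large (Slc7a11, Iars), small (Aars) and opposite (Yars) changes. A match describes the letters of this window and not a bound site.

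Genes of the same pathway outside the set were read from lists, to place the 33 beside their neighbours. The remaining cytosolic synthetase and scaffold genes moved the same way, with 4 of 5 higher in hIAPP islets (median log2 fold change 0.43) and 3 of 5 in mIAPP islets (0.32), and none lower. Eef1e1, a small subunit of the multisynthetase complex, rose by 0.91 ± 0.14 and 0.75 ± 0.14, and Mars, which charges methionine, by 0.43 ± 0.07 and 0.32 ± 0.07. The 17 synthetases that serve the mitochondrial ribosome did not share one direction. There 5 rose and 8 fell in hIAPP islets and 3 rose and 5 fell in mIAPP islets, with medians of -0.26 and -0.12. Vars2 fell by 0.99 ± 0.13 and 0.68 ± 0.13, and Aars2 by 0.88 ± 0.12 and 0.78 ± 0.12, while Yars2 rose by 0.79 ± 0.14 and 0.76 ± 0.14. Lars2 had far higher counts than any other gene of that list, with medians of 2992 CPM at 16.7 mM and 8857 CPM at 11.1 mM in hIAPP islets. It fell by 1.65 ± 0.26 there. The summed level of the list had a median of 4769 CPM and a highest value of 33270 CPM in mIAPP islets at 16.7 mM. Whether all counts of Lars2 came from its own transcript was not tested. With the mitochondrial covariate 1 of the 17 rose and 1 fell in hIAPP islets, the median was 0.02, and Lars2 had -0.32 (adjusted p = 0.405).

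Of the 20 genes of the amino acid response, 12 rose and 4 fell in hIAPP islets and 10 rose and 3 fell in mIAPP islets, with medians of 0.36 and 0.27. Atf4 itself measured a median of 310 CPM at 11.1 mM and 409 CPM at 16.7 mM in hIAPP islets and rose by 0.45 ± 0.07 and 0.40 ± 0.07. Asns, the asparagine synthetase and a classical ATF4 target, rose by 1.15 ± 0.08 and 0.98 ± 0.08 (adjusted p = 1.43e-11 and 6.5e-10). Stc2, a secreted glycoprotein, rose by 1.59 ± 0.17 and 1.56 ± 0.18, and Cth, which makes cysteine from cystathionine, by 2.15 ± 0.28 and 1.85 ± 0.28 from a median under 1 CPM at 11.1 mM. Other ATF4-linked genes of the list went down: Ddit3, the proapoptotic factor CHOP, fell by 1.25 ± 0.24 and 1.16 ± 0.24, and Trib3, a pseudokinase, by 0.47 ± 0.15 and 0.69 ± 0.16 (both named after their values were seen). The genes named from this list thus went both ways, and they are a selection from it. Ddit3 and Trib3 were not called in hIAPP islets with the mitochondrial covariate (-0.12 and -0.28), and both were called in mIAPP islets with it (-0.76 and -0.62). Fewer genes of this list were called higher, and fewer lower, in hIAPP islets with the covariate, as counted below. The rises of Atf4, Asns, Stc2 and Cth are given here without it. Atf3 was the single gene in all 6 lists with a genotype by glucose interaction past the threshold (1.45 ± 0.24, adjusted p = 7.26e-04). This call was not held in the libraries under 10% (1.62, adjusted p = 0.103). Atf3 had log2 fold changes with glucose of 1.29 ± 0.17 in hIAPP and -0.16 ± 0.17 in mIAPP islets.

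**Figure D4:**
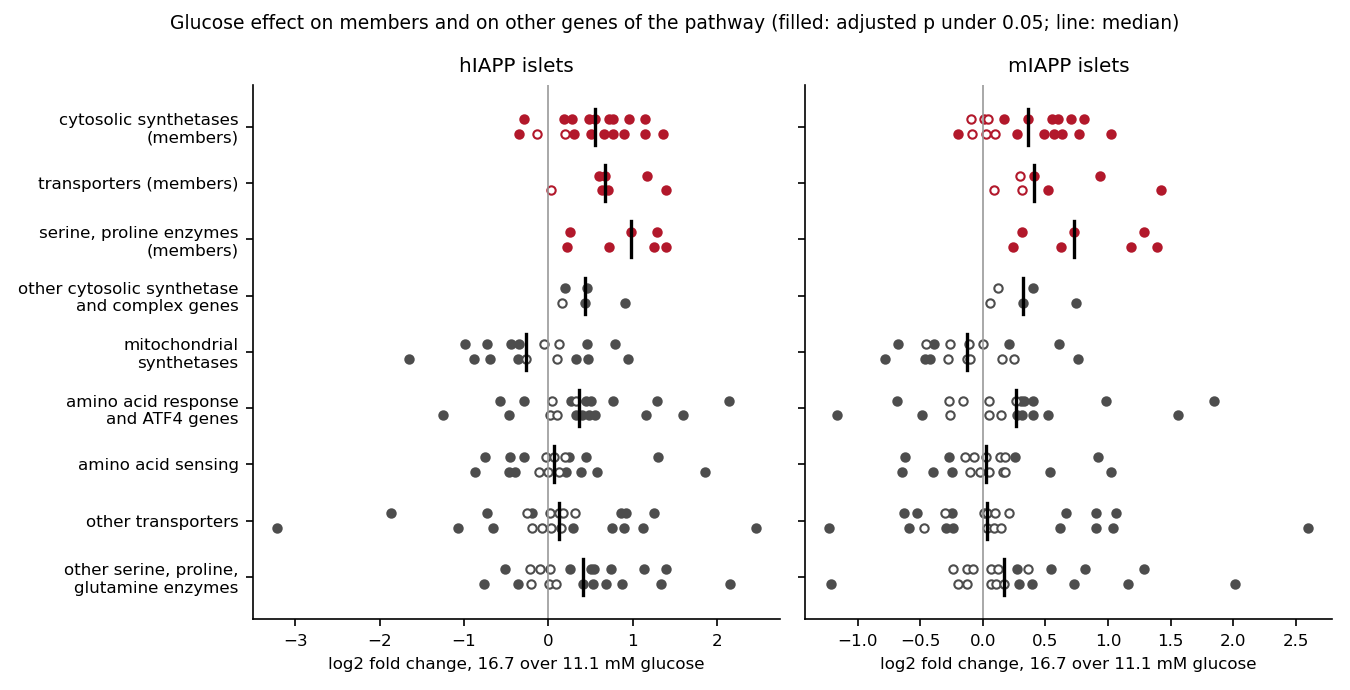
Log2 fold change between 16.7 and 11.1 mM glucose of each gene by role or list in hIAPP islets (left) and mIAPP islets (right), red for the 33 genes and grey for the other genes of the pathway; filled points had an adjusted p under 0.05, the bar is the median, and the horizontal scales differ between panels. The 3 rows of the set have medians above 0 in both panels, and the mitochondrial synthetases spread to both sides with medians of -0.26 and -0.12.

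Among the 19 genes listed under amino acid sensing directions were mixed: 7 rose and 6 fell with hIAPP, and 4 rose and 5 fell with mIAPP. Eif2ak3, counted in this list though it encodes the ER stress kinase PERK, rose by 1.86 ± 0.20 and 1.03 ± 0.20. Rraga, a GTPase that recruits mTORC1 to the lysosome, rose by 1.30 ± 0.17 and 0.92 ± 0.17. Lamtor4, of its lysosomal anchor, fell by 0.86 ± 0.14 and 0.62 ± 0.14. Eif2ak4, which senses uncharged transfer RNA, rose by 0.25 ± 0.09 in hIAPP islets and had 0.02 ± 0.09 in mIAPP islets (adjusted p = 0.834), and the former was not called with the covariate (0.19). Of 25 other amino acid transporters 23 could be tested, and 8 rose and 6 fell in hIAPP islets and 7 and 7 in mIAPP islets. Slc7a3, a cationic amino acid carrier related to Slc7a1, rose by 2.46 ± 0.19 and 2.60 ± 0.19, more than any of the 33. A second relative, Slc7a2, fell by 1.08 ± 0.13 and 0.63 ± 0.13. Slc7a3 went from a median of 3.06 to 15.1 CPM in hIAPP islets, while Slc7a2 went from 274 to 142 CPM. Of the 21 other serine, glycine, one-carbon, proline and glutamine enzymes, 12 rose and 3 fell in hIAPP islets and 9 rose and 1 fell in mIAPP islets. Gldc, of the glycine cleavage system, rose by 2.15 ± 0.20 and 2.02 ± 0.20, and Mthfd1l, which releases formate from mitochondria, by 1.40 ± 0.12 and 0.81 ± 0.12. With the mitochondrial covariate the counts in hIAPP islets were 1 rose and 0 fell for the other cytosolic synthetase genes, 6 and 2 for the amino acid response, 2 and 2 for sensing, 2 and 3 for the other transporters and 5 and 2 for the other enzymes. With upper-quartile scaling the amino acid response counted 10 and 4 in hIAPP and 6 and 5 in mIAPP islets.

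The second question was how the genotypes differed at each glucose level. At 16.7 mM, 8 of the 33 genes were higher in hIAPP than in mIAPP islets and 2 were lower. Of all genes tested 9.27% were called higher and 11.2% lower, so 8 of 33 is above the share over all genes and 2 of 33 is below it. The median log2 fold change was 0.07 (all genes, -0.01) and turned to -0.03 with the mitochondrial covariate, and no gene had groups that did not overlap (2.39% of all genes lay wholly higher and 0.584% wholly lower). All 8 that rose were synthetases. Rars, with 38.7, 57.6 and 69.9 CPM in mIAPP and 66.2, 72.8 and 80.04 CPM in hIAPP islets, was higher in 8 of 8 sets by 0.40 ± 0.08 on the log2 scale (adjusted p = 0.00167). Hars differed by 0.28 ± 0.07 (8 of 8 sets, adjusted p = 0.00638). Dars measured 31.5, 44.5 and 58.8 CPM in mIAPP and 50.6, 58.8 and 71.9 CPM in hIAPP islets and differed by 0.44 ± 0.12 (8 of 8 sets, adjusted p = 0.00956). The ranges of these 3 overlapped, with the hIAPP libraries in the upper part. Wars (0.31 ± 0.10), Farsb (0.30 ± 0.09), Qars (0.23 ± 0.08), Kars (0.20 ± 0.07) and Tars (0.19 ± 0.06) had adjusted p-values of 0.0219 to 0.0399.

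Shmt2 and Yars were the 2 that were lower in hIAPP islets at 16.7 mM. Shmt2 measured 68.5, 79.3 and 91.5 CPM in mIAPP and 57.0, 64.4 and 79.0 CPM in hIAPP islets and was lower in 8 of 8 sets (-0.29 ± 0.09, adjusted p = 0.0302). Yars was lower in 7 of 8 sets (-0.22 ± 0.08, adjusted p = 0.0457). The transporters and the serine synthesis enzymes Phgdh, Psat1 and Psph were not called. Their log2 fold changes were -0.10 to 0.33 for the transporters and -0.09, -0.07 and 0.19 for the enzymes. By total count the negative ones turned positive (Slc1a5 0.07, Phgdh 0.10, Psat1 0.11). The positive ones but Slc7a11 (0.12) turned negative with the mitochondrial covariate: Slc7a1 -0.09, Slc7a5 -0.13, Slc3a2 -0.07, Slc1a4 -0.16, Slc38a2 -0.28 and Psph -0.24, none called. These genotype calls were sensitive to the fit and to single sets. Without the set as a block 1 of the 10 was called (Hars). With the mitochondrial covariate none of the 10 was called and Phgdh was lower in hIAPP islets (-0.50, adjusted p = 0.00889); Rars then had 0.28 and Wars 0.34. In the libraries under 10% Rars (0.37, adjusted p = 0.0446) and Wars (0.43, adjusted p = 0.0299) were called. Leaving out the mIAPP library of set 7 kept 4 (Hars, Rars, Wars and Dars). Without set 1 and without set 2 it was Hars, Rars and Dars, without set 6 Hars, Rars, Wars and Dars, and without set 7 those and Kars; leaving out any other set gave 8 to 12. Scaling by total count lost Yars and Shmt2, and upper-quartile scaling lost Kars and Qars. None of the 10 was called in all 20 alternatives. The mitochondrial share at 16.7 mM differed between the genotypes, as given above, and all 8 hIAPP but only 5 mIAPP libraries were under 10%. Cell markers moved with this contrast too. Of the 8 beta cell markers 6 fell, with a median log2 fold change of -0.56. Their summed levels were 143700 to 207700 CPM in hIAPP and 185200 to 271200 CPM in mIAPP islets. These 8 include Iapp, the gene replaced in hIAPP mice, so its counts can differ by genotype without a shift in cells. Of the 7 endothelial markers 5 fell (median -1.01; 18.5 to 52.1 CPM against 36.3 to 118 CPM), while 2 of 6 ductal markers tested (707 to 1447 CPM against 520 to 995 CPM) and 2 of 7 macrophage markers (77.6 to 142 CPM against 73.0 to 152 CPM) rose. The part of these shifts in the genotype differences was not tested.

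**Figure D5:**
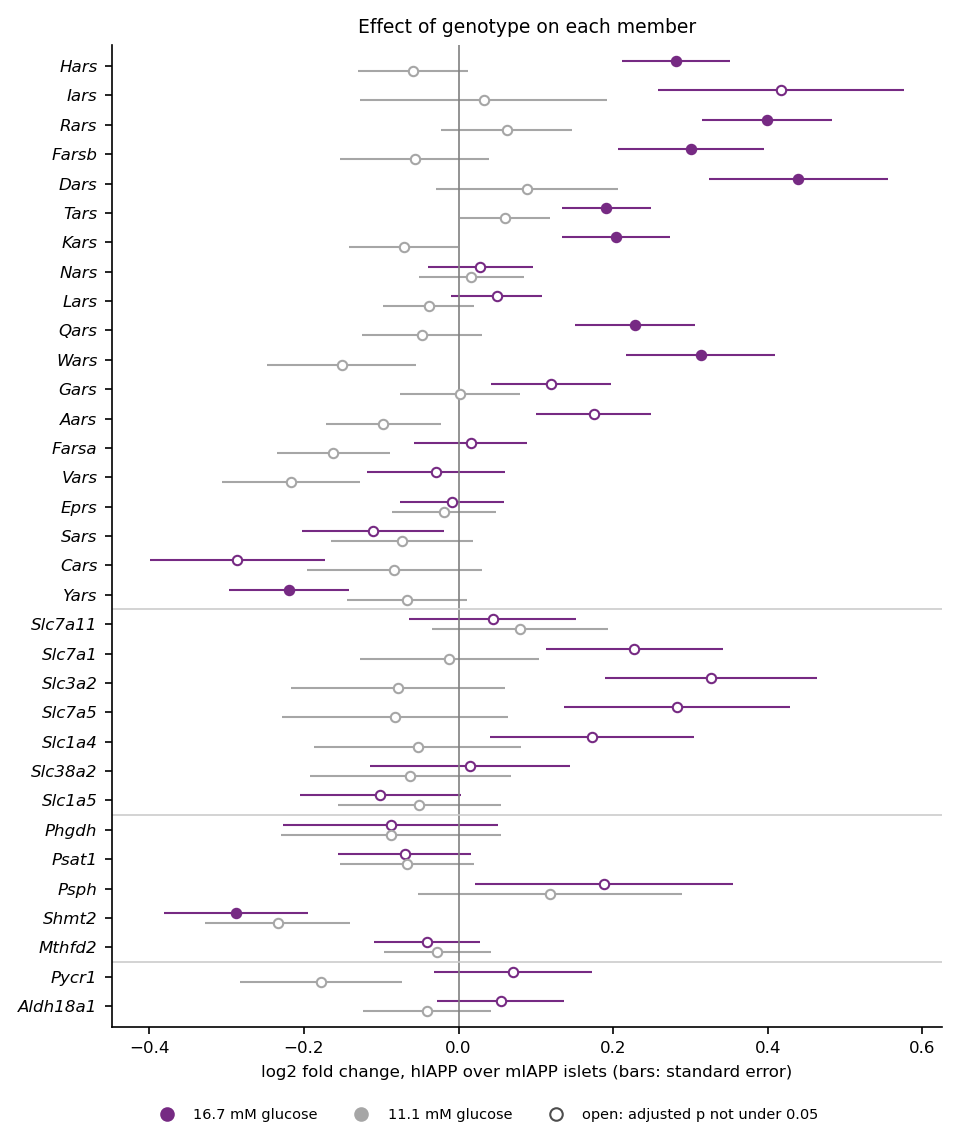
Log2 fold change between hIAPP and mIAPP islets for each of the 33 genes at 16.7 mM (purple) and 11.1 mM glucose (grey), with the standard error as a bar, 8 libraries a group; open points did not pass an adjusted p of 0.05. At 16.7 mM the 8 filled points right of 0 are synthetases and the 2 left of 0 are Yars and Shmt2, and at 11.1 mM every point is open.

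At 11.1 mM none of the 33 genes was called between the genotypes by edgeR, and none by DESeq2 or limma voom, where edgeR called 0.128% of all genes (0.11% higher and 0.0183% lower). No gene had groups apart, as 0.0791% of all genes did upward and 0.0122% downward. At an unadjusted p under 0.05 there were 3, Farsa, Vars and Shmt2, all lower in hIAPP islets (log2 fold changes of -0.16, -0.22 and -0.23). The median was -0.06 (all genes, 0.00), or 0.01 by total count, and the 33 values lay between -0.23 and 0.12. The summed level was 2791 to 3332 CPM in hIAPP and 2784 to 3503 CPM in mIAPP islets.

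Whether the glucose response depended on genotype was tested as an interaction. None of the 33 was called by edgeR, where 3.12% of all genes were (2.17% higher and 0.95% lower), and 9 had an unadjusted p under 0.05 (18.6% of all genes did). These were Aars, Dars, Farsb, Hars, Kars, Qars, Rars, Wars and Slc3a2, all with a larger change in hIAPP islets. Hars had an interaction of 0.34 ± 0.10 on the log2 scale, in the same direction in 8 of 8 sets (adjusted p = 0.0584), and Wars had 0.46 ± 0.14, in 6 of 8 sets (adjusted p = 0.0595). DESeq2 (adjusted p = 0.0106 and 0.0202) and limma voom (adjusted p = 0.0328 and 0.0419) called both. Over the alternatives in edgeR, Hars was called with median-of-ratios size factors and with the filter at a mean of 5 CPM, and Wars by total count, without set 7 (0.59, adjusted p = 0.013) and with only the mIAPP library of that set at 16.7 mM left out, where its level stood high (0.53, adjusted p = 0.021). With the mitochondrial covariate the interactions were 0.21 for Hars and 0.49 for Wars, and neither was called. The median interaction over the synthetases was 0.19, over the transporters 0.23 and over the serine enzymes -0.003, beside -0.02 over all genes; with the covariate the medians were 0.10, -0.08 and -0.20, so that of the transporters turned sign. Phgdh, Psat1 and Slc7a11 had values of -0.001 ± 0.20, -0.003 ± 0.12 and -0.04 ± 0.16, which by total count were 0.12, 0.12 and 0.09, and with the covariate -0.46, -0.20 and 0.05, none called. The genotype, glucose and interaction comparisons share libraries, so these values are not separate evidence.

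Levels between genes can be set side by side only per length. The length used was that of the longest annotated protein-coding transcript of a gene, which need not be the one expressed. As CPM per kilobase of transcript, in hIAPP islets at 16.7 mM, the medians ran from 1.71 for Slc7a11 and 4.00 for Slc1a5 to 109 for Nars and 119 for Gars. The synthetases covered 20.3 (Vars) to 119, and Phgdh, Psat1 and Psph had 43.6, 31.5 and 20.3. Slc3a2, the shared heavy chain, had 78.9, its partner Slc7a5 63.3 and its other partner Slc7a11 1.71.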

How the data were processed

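Polyadenylated RNA from cultured islets was sequenced with a directional library kit, per the labels' protocols. The authors deposited 1 table of estimated counts per gene (expected counts from kallisto 0.45.0 after bcl2fastq 1.8.4, build GRCm38, per the submitters' processing notes); the counting step that joined transcripts to genes is not given in the sources used here. The estimates were rounded to whole numbers. In edgeR 4.0.16 (R 4.3.3) genes were filtered by filterByExpr, scaled by TMM and fitted by robust quasi-likelihood over all 32 libraries with group and set as terms (21 residual degrees of freedom); p-values were adjusted by Benjamini-Hochberg over 16428 genes, and called means an adjusted p under 0.05. CPM used the TMM library sizes. The script was tested on simulated data. The labels state the sets, which were the block; deviations of same-set libraries correlated by 0.145 to 0.32 on average between groups, and the lowest single pairs by -0.17 to 0.02. Alternatives were other scalings, filters, DESeq2 1.42.0, limma voom 3.58.1, no block, a mitochondrial covariate, libraries under 10% mitochondrial counts, and leaving out 1 library or each set. The 33 genes, the lists and the alternatives were chosen with earlier results of these data known. Named in the text are all 33 genes and up to 4 genes per list with the smallest p in a comparison, plus Atf4, Asns and the Gcn2 gene; others are marked. Transcript lengths and exon overlaps come from GENCODE M21, and the coordinates of the promoter windows from RefSeq. Exons of Aars, Cars, Farsb, Hars, Yars and Shmt2 overlap exons of another gene, so reads may be split or shared there. The promoter sequence of Aars is not reported here.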

Additional observations from a re-analysis of the deposited data

Results flagged for a closer look

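In each group of 8 libraries, 1 value was marked where its distance to the nearest other exceeded Dixon's 95% critical share of the group's range; chance marks about 1 in 20 groups, and 10 of 140 groups were marked, 9 of them among the 132 of the 33 genes. The mIAPP library of set 7 at 16.7 mM accounted for 8. It had 37.0% mitochondrial counts, with the next library at 13.4%. In it Cars was 246 CPM (next library 131), Sars 534 CPM (363), Vars 120 CPM (87.5), Wars 241 CPM (169) and Yars 166 CPM (124), each the highest of its group. Slc7a5 was 99.2 CPM (next 182) and Psph 12.7 CPM (29.4), each the lowest. These 5 synthetases lie outside the multisynthetase complex, as do 12 of the 19 in the set. In hIAPP islets at 16.7 mM the library of set 3 had the highest Psat1, 107 CPM (next 85.0), and the highest Psph, 42.1 CPM (36.8).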

How the results depend on the processing

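Of the called genes, 15 in hIAPP and 16 in mIAPP islets kept the call with glucose under all 20 alternatives, and none of the 10 did between genotypes at 16.7 mM; at 11.1 mM all 33 stayed uncalled. The 30 members called with glucose in hIAPP islets became 15 with the mitochondrial covariate and 18 in the libraries under 10%. The median log2 fold change over all 33 genes, 0.67 there, became 0.53 (upper quartile), 0.87 (total count) and 0.30 (covariate). In mIAPP islets the median of 0.49 over the 33 became 0.31 with the covariate. Among called genes, signs turned for Cars in hIAPP islets (0.24 with the covariate, 0.034 under 10%), Slc7a5 in hIAPP islets (-0.042 with the covariate) and Slc1a4 in mIAPP islets (-0.0090 under 10%). Between genotypes at 16.7 mM the 10 called became 5 without a filter, where more genes were tested, 2 under 10% and 4 without the mIAPP library of set 7. With the covariate none of the 10 was called, and the 1 call was Phgdh, a gene outside them. Leaving out single sets gave 3 to 12 calls. The median of 0.07 became 0.26 by total count, which moved the median of all genes to 0.18, and -0.03 with the covariate. Without the set as a block 1 was called in place of 10; for all genes this comparison gave 644 higher and 657 lower without the block, against 1523 and 1848. The block changed no call in the interaction or at 11.1 mM, and elsewhere those of Cars, Eprs, Yars and Slc1a4. For the interaction the 0 called became 1 (median-of-ratios factors, total count, the 5 CPM filter, or without the mIAPP library of set 7), 2 (DESeq2 and limma voom) and 0 to 1 when single sets were left out. Scaling split all calls with glucose in hIAPP islets as 5294 higher and 5474 lower (TMM), 4145 and 6636 (upper quartile) or 6240 and 4178 (total count). Causes beyond those stated were not tested. All alternatives planned were run. Estimated counts carry mapping uncertainty that these fits do not hold, and the low-share libraries at 11.1 mM are few.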
